A study of Mus musculus with 4 samples.

Results

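The immediate early genes studied here are Fos, Fosb, Jun, Junb, Egr1, Ier2, Dusp1, Atf3, Zfp36 and Nr4a1, 10 genes that many cell types transcribe within minutes of a stimulus. They were taken as all probe sets annotated to exactly 1 of these genes, a rule that uses no measured values. The genes themselves were chosen with earlier results of these data known. That gave 11 of the 45037 probe sets tested, 2 for Jun and 1 for each other gene. RNA came from LSK cells, the foetal liver fraction without lineage markers and with cKit and Sca1 at its surface, which contains the stem cells and early progenitors of blood. The embryos were female, at E13.5 and Hes1 GFP/WT. All samples shared this genotype, in which GFP reports 1 of the alleles of Hes1, a Notch-induced repressor gene, and the other is wild type. Cells labelled HES1-GFP negative gave 3 arrays and cells labelled HES1-GFP positive gave 1 array. Litters, sorts and the number of embryos behind each sample are not given in the labels, and p-values therefore measure only the spread between these samples, which may be technical.

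Immediate early genes need no new protein synthesis to be switched on. Growth factors, cytokines and stress act through the kinases ERK, JNK and p38 on factors already bound at their promoters, such as SRF with its ternary complex partners and CREB. The products are mainly transcription factors, among them the Fos and Jun proteins that pair to form AP-1, together with inhibitors such as Dusp1 and Zfp36 that end the response. Handling and sorting of fresh tissue is also known to switch these genes on.

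The 4 arrays had median intensities of 74.7 to 76.1 on the deposited linear scale; precision is limited by their number. Hes1 went against the labels. Its log2 intensity was 6.57 in the array labelled positive against 8.78, 9.07 and 6.70 in the negative arrays, so groups are called by their labels throughout. Kit was bright in all 4 arrays, from 9.68 to 10.13, and Ly6a, which encodes Sca1, was not analysed here. Markers of macrophages, of B lineage cells and of granulocytes and monocytes were present and unevenly spread. Whether LSK cells or other cells in the sort carried them was not tested. The summed linear intensity of 14 macrophage markers was 40679, 38876 and 17395 in the negative arrays, in the order of their numbers, and 16058 in the array labelled positive. That of 9 B lineage markers was 23189, 23068, 4070 and 4082 in the same order, and that of 11 granulocyte and monocyte markers was 43531, 45015, 77949 and 78394. Bright genes weigh most in these sums. Lyz2 ran against the other macrophage markers, at log2 12.41, 12.34, 13.08 and 12.98 in the same order. Fcgr3 ran against the other granulocyte and monocyte markers, at 10.79, 10.31, 10.04 and 9.88. The lowest log2 value of any macrophage or B lineage marker was 3.78, for Cd163 in the array labelled positive. That array lay above the negative range in 5 of 10 stem and progenitor markers and below it in 1, and for endothelial markers in 1 and 7 of 10, for hepatoblast markers in 3 and 0 of 9 and for erythroid markers in 1 and 0 of 7, beside 23.6% of all genes above and 23.0% below. In bulk RNA, fewer cells of a type and less RNA per cell cannot be told apart.

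The median SD of the immediate early genes over the negative arrays was 0.24 log2 units, beside 0.24 for all genes and 0.29 for genes above the median level. That level is the median over genes, each by its brightest probe set, and is higher than the 6.23 of all probe sets. The median over all genes was 7.22 to 7.26 in the 4 arrays. The means of Atf3 (6.18), Fosb (6.88) and Junb (6.94) lay below these values. In the array labelled positive, 7 of 10 lay within 0.5 of the negative mean, as did 79.9% of all genes. Of the 10 genes, each by its brightest probe set, 6 spanned less than 0.5 log2 units over the 4 arrays, as did 33.7% of genes above the median level and 45.9% of all genes. Zfp36 spanned 0.52, and the other 3, Fosb, Atf3 and Nr4a1, spanned more than 1 log2 unit, as did 24.8% of all genes. In the comparison of the array labelled positive with the negative arrays, no immediate early gene passed the test. limma (adjusted p under 0.05, Benjamini-Hochberg over all probe sets) called 0.0% of probe sets higher and 0.0% lower, with 2032 at an unadjusted p under 0.05, none of them an immediate early gene. The lowest limma adjusted p among the members was 1.00, and the lowest unadjusted p in that fit was 0.127, for Atf3. The spread in this fit comes from the 3 negative arrays, and the lone array labelled positive was assumed to vary like them.

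**Figure D1:**
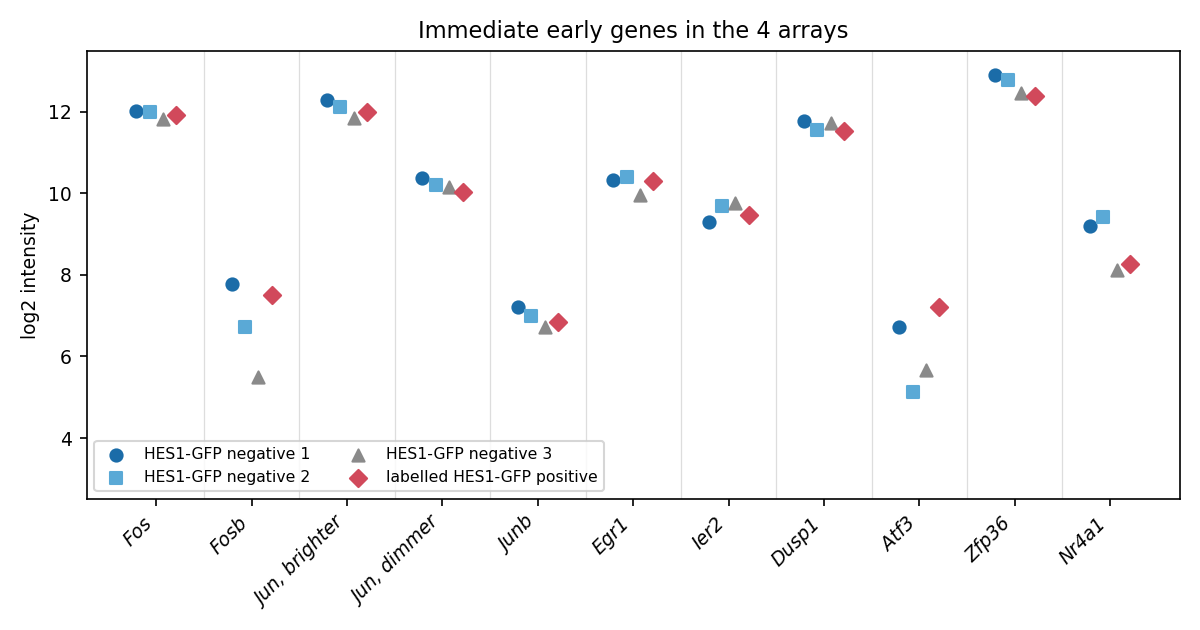
Log2 intensity of each immediate early probe set in the 4 arrays, 1 column per probe set and 1 point per array, with the 2 probe sets of Jun shown apart. The 4 points lie within 0.52 log2 units for every probe set but those of Fosb, Atf3 and Nr4a1; heights of different probe sets are not comparable, since probes differ in brightness.

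Fos encodes the founding Fos subunit of AP-1, which must pair with a Jun protein to bind DNA. Its log2 intensity (probe set 1423100_at) was 12.02, 11.99 and 11.83 in negative replicates 1, 2 and 3 and 11.92 in the array labelled positive. The latter lay inside the negative range, and the 4 arrays were within 0.19 log2 units of each other. The difference from the negative mean of 11.95 ± 0.10 (SD, n = 3) was -0.03, with a 95% limma interval from -0.62 to 0.56. Fos is shown by its promoter because it was the steadiest member. The 250 bases before its start (chr12:85473640-85473889, plus strand, GRCm38.p6, RefSeq) are printed 5′ to 3′ with a TATAAA match, 33 bases before the start, in capitals.
Fos: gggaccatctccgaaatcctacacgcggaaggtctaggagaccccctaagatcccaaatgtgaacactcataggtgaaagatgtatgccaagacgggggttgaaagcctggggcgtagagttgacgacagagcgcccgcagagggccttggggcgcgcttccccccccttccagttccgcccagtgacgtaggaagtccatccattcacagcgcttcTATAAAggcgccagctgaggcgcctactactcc

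Fosb, a close relative of Fos, had the widest span of the members over the negative arrays. Its log2 intensity (1422134_at) was 7.78, 6.73 and 5.49 in negative replicates 1, 2 and 3 and 7.51 in the array labelled positive. The negative arrays alone thus covered 2.28 log2 units, a 4.87-fold span on the linear scale, and the array labelled positive fell within it. The difference was 0.84 with a standard error of 0.98 and an interval from -1.92 to 3.61, so neither a several-fold higher nor a several-fold lower level was outside the interval. Without negative replicate 3 the difference was 0.26, and without negative replicate 1 it was 1.40.

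Jun, the main partner of Fos in AP-1, was read by 2 probe sets. The brighter one (1417409_at) had log2 intensities of 12.29, 12.13 and 11.86 in negative replicates 1, 2 and 3 and 12.00 in the array labelled positive, inside the negative range. The dimmer one (1448694_at) had 10.38, 10.21 and 10.16 against 10.05, so that the array labelled positive lay 0.11 below the lowest negative array. The differences were -0.09 (interval from -0.83 to 0.65) and -0.21 (interval from -0.81 to 0.40). Both probe sets put negative replicate 1 highest and replicate 2 next, and they disagreed on which of the remaining arrays was lower.

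Junb, a Jun relative that also restrains myeloid proliferation, had log2 intensities (1415899_at) of 7.21, 7.00 and 6.72 in negative replicates 1, 2 and 3 and 6.84 in the array labelled positive. The array labelled positive lay inside the range, with a difference of -0.14 and an interval from -0.93 to 0.66. Fos, Jun in its brighter probe set and Junb ranked the 4 arrays identically, with negative replicate 1 first, replicate 2 second, then the array labelled positive, and negative replicate 3 last. Fosb shared the first and last places, while the array labelled positive stood above replicate 2. None of the 4 AP-1 genes lay outside the negative range by its brightest probe set, beside 9714 of all 18193 genes that lay within it.

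Egr1 and Ier2 are further regulators of transcription among the members. Egr1, a zinc finger factor that in adult marrow is linked to stem cell quiescence, had log2 intensities (1417065_at) of 10.34, 10.39 and 9.96 in negative replicates 1, 2 and 3 and 10.31 in the array labelled positive. Negative replicate 3 was the low array, and the other 3 lay close together. The difference was 0.08 (interval from -0.70 to 0.86), and it turned to -0.06 without negative replicate 3. Ier2, a nuclear protein of the early growth response, had 9.30, 9.69 and 9.77 against 9.48 (1416442_at). Here negative replicate 3 was the highest array and replicate 1 the lowest, an order that no other member had. The difference was -0.11 (interval from -0.92 to 0.70). Among the relatives of Egr1, Egr2 was at 5.87, 4.62 and 4.08 in negative replicates 1, 2 and 3 against 4.32. Egr3 was at 7.40, 7.65 and 7.49 against 7.42, a difference of -0.09, but its other probe set disagreed and the mean over both was 1.17.

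Atf3, a stress-induced member of the ATF and CREB family, was the only member whose array labelled positive lay above all 3 negative arrays. Its log2 intensity (1449363_at) was 6.72, 5.12 and 5.66 in negative replicates 1, 2 and 3 and 7.21 in the array labelled positive. It exceeded negative replicate 1 by 0.49 and replicate 2 by 2.08. The difference from the negative mean of 5.83 ± 0.81 (SD, n = 3) was 1.37, a 2.59-fold ratio, with a standard error of 0.71 and an interval from -0.63 to 3.38. One such gene of 10 stands beside 23.6% of all genes with the array labelled positive above the negative range. Atf3 was also the only member with a mean below the median level of all probe sets, 6.18 against 6.23, where no detection calls were at hand. Its promoter is printed as that of the member furthest from the negative arrays (chr1:191183334-191183583, minus strand, GRCm38.p6, RefSeq); none of the motifs searched was found in these 250 bases, so it has no capitals.
Atf3: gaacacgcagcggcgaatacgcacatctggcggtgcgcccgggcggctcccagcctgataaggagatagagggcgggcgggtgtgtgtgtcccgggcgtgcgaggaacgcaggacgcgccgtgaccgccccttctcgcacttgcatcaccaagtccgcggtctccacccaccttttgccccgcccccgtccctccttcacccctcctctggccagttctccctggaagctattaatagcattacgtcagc

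Nr4a1 encodes an orphan nuclear receptor induced by antigen receptor signals in lymphocytes and needed for one class of monocytes. Its log2 intensity (1416505_at) was 9.19, 9.41 and 8.13 in negative replicates 1, 2 and 3 and 8.28 in the array labelled positive. Negative replicates 1 and 2 were high, and the other arrays were low, 0.15 apart. The difference was -0.63 with a standard error of 0.60 and an interval from -2.34 to 1.08, and without negative replicate 3 it was -1.02 with a limma adjusted p of 0.628. The same arrays were high and low for the macrophage and B lineage markers, whose part in the values of Nr4a1 was not tested. Its relative Nr4a2 had 9.68, 9.03 and 8.01 against 8.64, with replicates 1 and 2 again above the other arrays. That probe set differed by -0.26, while the mean over the 6 probe sets of Nr4a2 was 0.21. Nr4a3 had 6.74, 6.62 and 6.92 against 7.37, above the negative range, and did not have this order.

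The remaining members act as brakes. Zfp36 encodes tristetraprolin, which binds AU-rich elements and speeds the decay of cytokine and early response mRNAs. Its log2 intensity (1452519_a_at) was 12.90, 12.78 and 12.46 in negative replicates 1, 2 and 3 and 12.38 in the array labelled positive, 0.08 below the lowest negative array. The difference was -0.33 (interval from -1.09 to 0.43). Dusp1, a nuclear phosphatase that inactivates p38, JNK and ERK, had 11.77, 11.57 and 11.74 against 11.54 (1448830_at). Here the array labelled positive lay 0.03 below negative replicate 2, and the difference was -0.15 (interval from -0.75 to 0.44). Zfp36 and Dusp1 were the 2 members below the negative range, 2 of 10 beside 23.0% of all genes, and both gaps were smaller than the SD of their own negative arrays, 0.23 and 0.11. The promoter of Zfp36 is printed as that with the most kinds of motif (chr7:28379229-28379478, minus strand, GRCm38.p6, RefSeq). Capitals mark GCGGGGGCG, the letters of an EGR site, CCGGAAG, an ETS core, and a CArG box, the site that SRF binds, which start 105, 92 and 58 bases before the start.
Zfp36: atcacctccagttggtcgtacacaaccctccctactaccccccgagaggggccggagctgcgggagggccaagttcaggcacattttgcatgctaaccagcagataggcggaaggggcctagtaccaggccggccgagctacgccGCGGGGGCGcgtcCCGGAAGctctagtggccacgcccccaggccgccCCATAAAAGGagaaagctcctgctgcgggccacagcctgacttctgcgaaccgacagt

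The motif search covered 8 of the 10 members, those with an entry in the RefSeq promoter table, which had none for Egr1 and Ier2. All 7 motifs were searched on both strands in the 250 bases before the start that the table uses, and the shares given are of all 32851 windows of that length. Only full matches within the window were counted, not sites further upstream or sites that differ by a letter. A member without a match here may thus still hold such a site. From the window's end to the outermost RefSeq start of the gene, the distance was -72 bases for Fosb and -12943 for Nr4a1. Both windows thus reach past that start, while those of the other members searched end directly before it. TATAAA was found in Fos alone (12.4% of windows) and CCGGAAG in Zfp36 alone (6.91%). The CArG box was likewise found in Zfp36 alone (1.47%). TGACGTCA, the palindromic cyclic AMP element, was found in Dusp1 alone (1.55%), 143 bases before the start. TGACTCA, an AP-1 site, was found in none of the 8 (4.46% of windows). TGACGCA, which shares its first 5 letters with TGACGTCA, was found in Fosb and Nr4a1 (1.75% of windows), and GCGGGGGCG in Fosb, Nr4a1 and Zfp36 (2.57%). Fosb and Nr4a1 held both, as these short stretches show with the matches in capitals. That of Nr4a1 shows the matches as their reverse complements, and its window held TGACGCA 4 times. The Fosb stretch is chr7:19310084-19310108, minus strand, and the Nr4a1 stretch chr15:101266770-101266799, plus strand (GRCm38.p6).
Fosb: gggTGACGCAagcGCGGGGGCGggt
Nr4a1: ccgtgTGCGTCAgtggCGCCCCCGCccctc

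**Figure D2:**
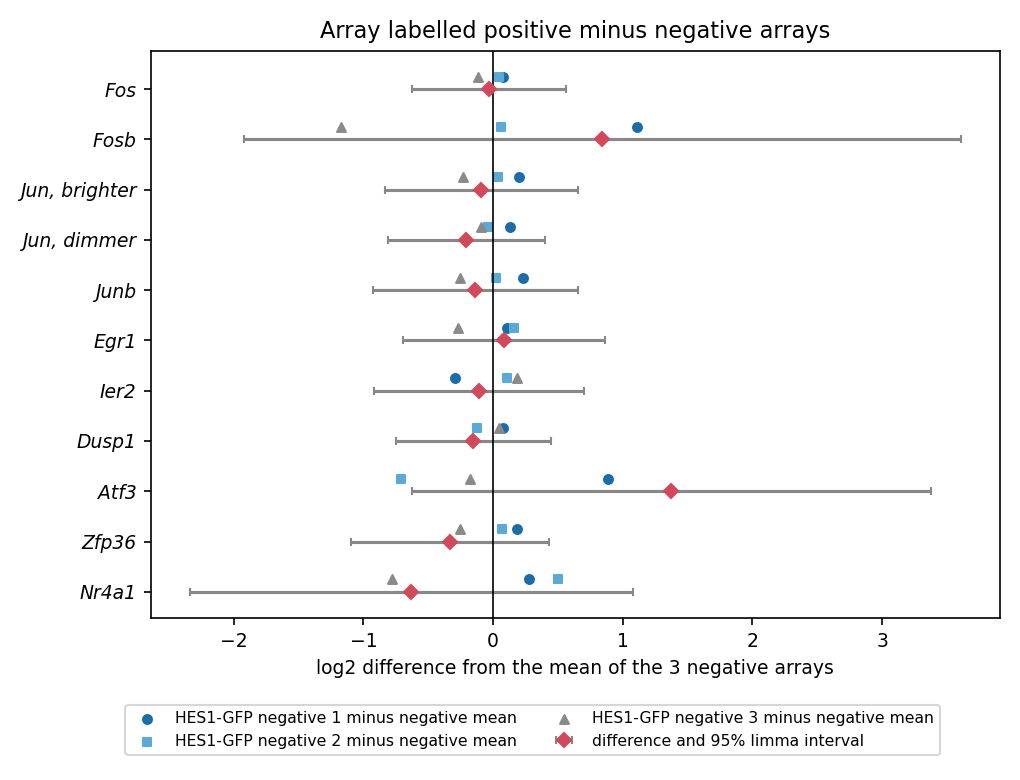
Log2 difference of the array labelled positive from the mean of the 3 negative arrays for each immediate early probe set (diamonds) with its 95% limma interval, and each negative array's own distance from that mean. Every interval includes 0; the intervals of Fosb, Atf3 and Nr4a1 are the widest.

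The order of the arrays within the members was uneven. Negative replicate 1 was the highest array in 6 of 10 members, as in 21.0% of all genes, and negative replicate 3 was the lowest in 6 of 10, as in 19.5% of all genes. The array labelled positive was below negative replicate 1 in 8 of 10 members and below replicate 2 in 8 of 10, while 45.2% and 50.1% of all genes were. Against negative replicate 3 it was lower in 3 of 10 members, beside 54.0% of all genes. The median difference over the 10 members was -0.10 log2 units, beside -0.001 over all genes, and the medians against negative replicates 1, 2 and 3 were -0.25, -0.11 and 0.13. Without negative replicate 3, 7 of 10 members lay below both remaining negative arrays, beside 31.4% of all genes and 29.0% of genes above the median level. Without negative replicate 1, 2 of 10, Fosb and Atf3, lay above both remaining negative arrays, beside 30.1% of all genes.

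Both negative replicates 1 and 2 lay above both other arrays in 6 of the 10 members, namely Fos, Jun, Junb, Egr1, Zfp36 and Nr4a1. The same order held in 13 of 14 macrophage markers, 9 of 9 B lineage markers and 17.4% of all genes. Whether the cells that carry these markers shaped the members' values was not tested. The gaps differed in size. C1qc, a complement chain made by macrophages, was at 11.94, 11.99, 8.80 and 8.18 in negative replicates 1, 2 and 3 and the array labelled positive, and Cd79a, a B cell receptor chain, at 11.72, 12.19, 8.28 and 7.44. Fos over the same arrays stayed within 0.19 log2 units, and Nr4a1 within 1.28.

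**Figure D3:**
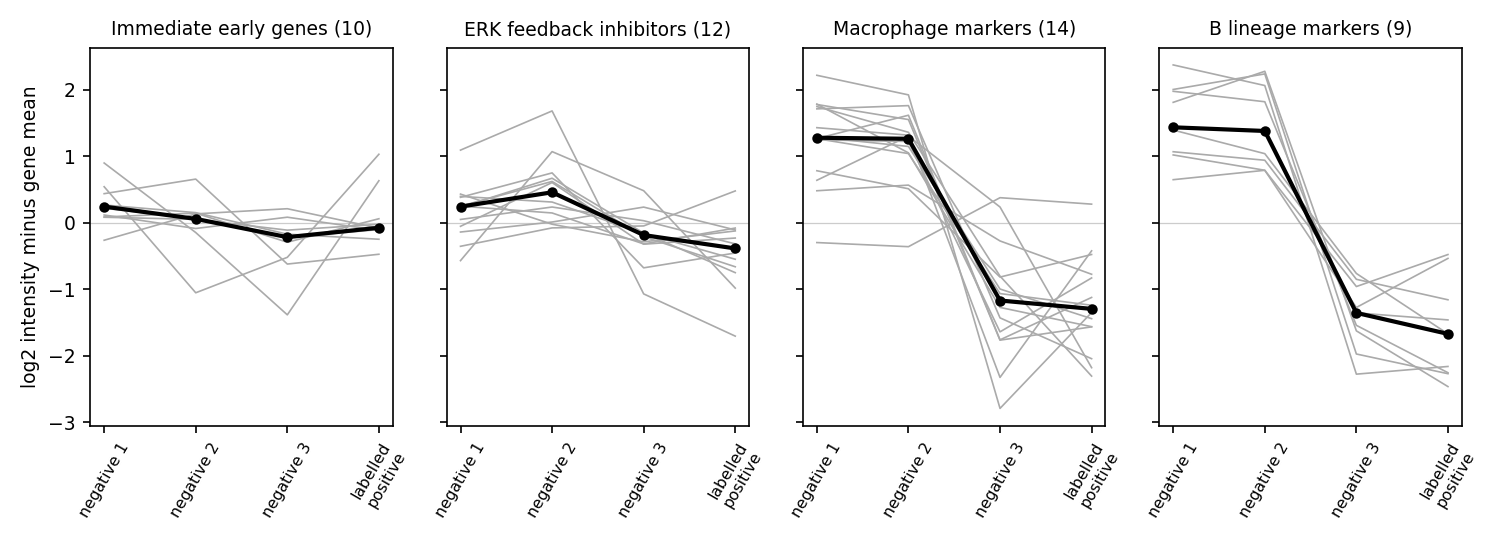
Log2 intensity minus the gene's mean over the 4 arrays, for the 10 immediate early genes, 12 genes listed as ERK feedback inhibitors, 14 macrophage markers and 9 B lineage markers. Grey lines join the values of 1 gene, the black line is the median, and the arrays have no order among themselves; the drop from negative replicates 1 and 2 to the other arrays is several log2 units in the marker lists and small in the immediate early genes.

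Genes of the same response were read beside the members, each by its brightest probe set, and none of them passed limma in either direction. Among 12 other AP-1, ATF and small MAF subunits, 3 lay above the negative range, 2 below and 7 within, beside 23.6% above and 23.0% below of all genes, with a median difference of 0.19. Fosl2, a Fos relative, was at 8.42, 7.18 and 8.68 in negative replicates 1, 2 and 3 and 9.37 in the array labelled positive, and its other probe set gave a difference of 1.16. Fosl1, Mafg and Batf3 differed by 0.42, 0.74 and 0.53, but the mean over both probe sets was -0.07 for Fosl1 and 0.19 for Mafg. Among 34 other early response genes, 5 lay above, 7 below and 22 within, beside 23.6% above and 23.0% below of all genes, with a median of -0.11. Phlda1, a pleckstrin-like protein induced by growth factors, spread over 8.97, 4.97 and 7.37 in the negative arrays against 9.35. This is the order of arrays that Atf3 had. Csrnp1, a nuclear protein induced by AXIN1, was at 9.10, 9.28 and 9.11 against 7.63, a difference of -1.53 that its second probe set, at -0.09, did not show. Ccn1, a matrix protein, was at 6.53, 7.88 and 4.76 in the negative arrays against 4.88, inside the negative range. It differed by -1.51, and by -0.79 as the mean of its 4 probe sets. Tnfaip3, an inhibitor of NF-kappaB, differed by -1.07.

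ERK feedback inhibitors are switched on by ERK and dampen it in turn. The list of 12 genes read here also holds Dusp10 and Dusp16, phosphatases that act mainly on JNK and p38. Of the 12 genes, 6 lay below the negative range, beside 23.0% of all genes, 1 above and 5 within. Their median difference was -0.52 log2 units, beside -0.001 over all genes. Errfi1, an inhibitor of EGF receptor family kinases, was at 7.87, 8.46 and 5.71 in negative replicates 1, 2 and 3 against 5.08, and Spry1, a Sprouty protein, at 8.53, 8.97 and 8.14 against 7.55. The Dusp1 relatives Dusp2 and Dusp4 were at 8.84 against 9.75, 10.13 and 9.29, and at 5.54 against 5.95, 7.59 and 7.00. In the array labelled positive, Errfi1, Dusp4 and Spry4 lay below 6.23, the median level of all probe sets. Spry4, also counted below the negative range, was under that level in all 4 arrays, at 5.78, 5.96 and 5.76 against 5.41. Its 4 probe sets differed by -0.71 to 0.09. The second probe set of Errfi1 differed by only -0.59. Dusp16, the gene above the negative range, had another probe set at -1.61. In 9 of the 12, negative replicates 1 and 2 again lay above both other arrays, as the macrophage and B lineage markers did, and their part was not tested. Dusp1 itself did not have this order.

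Of 24 upstream kinases and factors, 18 were measured, and 3 lay above the negative range, 6 below and 9 within, beside 23.6% above and 23.0% below of all genes, with a median of -0.04. Srf, which binds the CArG box, was at 10.37, 9.87 and 10.04 against 10.29. Rps6ka5, Crem, Mrtfb and Mapk8 differed by -0.96, -0.94, 0.83 and -0.80, and as means of all their probe sets by -0.17, -0.48, 0.25 and 0.11. In each of these 4 genes the probe sets differed in opposite directions. Of 6 co-repressors and paralogues, 2 lay above, 0 below and 4 within, to be read beside the same shares, with a median of 0.04. Zfp36l1, a relative of Zfp36, was at 11.01, 10.77 and 9.67 against 9.74, while Zfp36l2 was at 11.95, 11.87 and 11.95 against 11.93. Sp3, Nab1 and Sp1 differed by 0.32, 0.31 and 0.08, and the 3 probe sets of Nab1, from -0.15 to 1.83, had a mean of 0.66.

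Stress genes gave the last comparison, since Atf3 is a target of the integrated stress response and heat shock genes are also known to rise on handling. Of 13 heat shock genes, 5 lay above, 5 below and 3 within the negative range, beside 23.6% above and 23.0% below of all genes. Their median difference was -0.01, with a median range over the 4 arrays of 0.22 log2 units, beside 0.54 for all genes and 0.68 for genes above the median level. Hspa1a and Hspa1b, which are near-identical and may share probes, differed by 0.57 and -0.55, Dnajb4 by 0.51 and Hsph1 by 0.36. The means over their probe sets were -0.31 for Hspa1b, -0.18 for Dnajb4 and 0.03 for Hsph1. Of 13 integrated stress response genes, 2 lay above, 5 below and 6 within, to be read beside the same shares, with a median of -0.24. Sesn2 was at 8.58, 8.16 and 7.48 against 7.12 and Ddit4 at 11.53, 11.18 and 10.39 against 10.30. Averaged over its probe sets, which disagreed in sign, Sesn2 differed by -0.33. Asns and Cebpg differed by 0.40 and -0.37, and the probe sets of Cebpg also disagreed in sign. Atf4, the factor that drives Atf3 in this response, was at 11.17, 11.22 and 11.44 against 11.09, a difference of -0.18, while the mean over its 3 probe sets was 0.09.

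**Figure D4:**
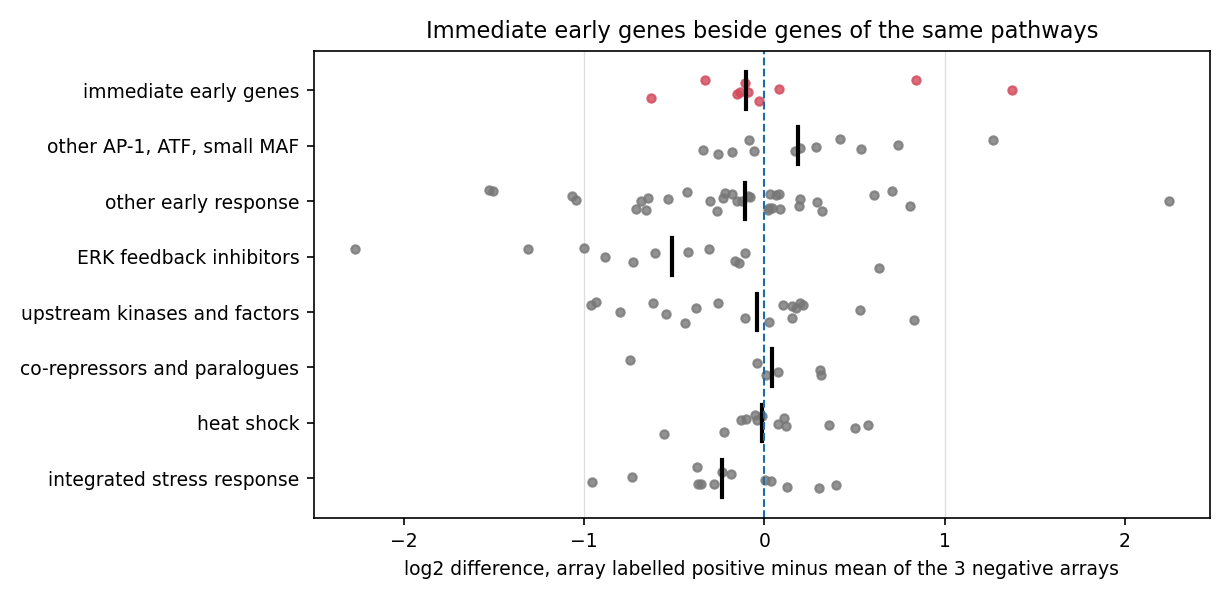
Log2 difference of the array labelled positive from the mean of the 3 negative arrays, 1 point per gene, for the immediate early genes and 7 lists of the same response, with black bars at list medians and a dashed line at the median of all genes (-0.001). The immediate early genes gather between -0.63 and 0.08 apart from Fosb at 0.84 and Atf3 at 1.37; vertical scatter within a list has no meaning.

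The genes whose pattern lay nearest to the members' mean pattern were sought among named genes above the median level. The mean of the members' centred log2 values was 0.27, -0.003 and -0.32 in negative replicates 1, 2 and 3 and 0.06 in the array labelled positive, a mean that Fosb and Atf3 pull upward in the last array. By Euclidean distance over the 4 arrays the nearest were Ntmt1 (0.047), Chtf8 (0.053), Gtf2ird2 (0.055), Bach1 (0.063) and Sdhaf2 (0.072). With 4 arrays and 18193 genes such closeness is easily met.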

How the data were processed

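Microarray expression was measured in 4 samples of LSK cells from foetal liver, 3 HES1-GFP negative and 1 HES1-GFP positive by their labels. Per the labels' protocols, 5 ng of total RNA went through Nugen Ovation amplification and biotin labelling. Per the submitters' processing notes the authors used RMA, with no version at hand. The deposited table holds an intensity for each probe set, linear as judged from the values themselves, which was turned into log2 values with no pseudocount. Of 45101 probe sets, 64 were controls and were left out, and the platform annotation gave 34945 of the rest 1 gene symbol, 932 several and 9160 none, and 34741 were matched to the GRCm38.p6 gene table by gene ID. limma 3.58.1 (R 4.3.3; lmFit, eBayes, two-sided) was run on all 45037 probe sets, with 2 residual and 1.80 prior degrees of freedom, and was tested on simulated data. For counts over the 18193 genes, each gene was represented by its brightest probe set on average. The named genes are all members, up to 4 genes per list with the largest absolute difference, Hes1, the 5 nearest patterns, and relatives of members added as values. The members and lists were chosen with earlier results of these data known. A search of 7 motifs used the RefSeq promoter table. Alternatives were 1 probe set per gene, averaged probe sets, leaving out _x_at and _s_at probe sets, cyclic loess, a level filter, trend and robust settings, log2(intensity + 16), and leaving out each negative array.
Of the listed genes, 17 were not analysed here.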

Additional observations from a re-analysis of the deposited data

How the results depend on the processing

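No paired analysis was possible, because only 1 array was labelled positive and the labels do not say which samples belong together. In all 10 alternatives limma called 0 higher and 0 lower, whether over the 45037 probe sets, a part of them or the 18193 genes. Of 99 differences of single members under the alternatives, 96 kept their direction, none passing the threshold. The others were Fos (-0.090 to 0.0066) and Jun (-0.21 to 0.0074), which turned without negative replicate 1, and Egr1 (-0.055 to 0.16), which turned without negative replicate 3. After the filter on level, 0 members lay above the negative range, since Atf3 was removed. Leaving out 1 negative array, 1 to 2 members lay above the range of the others and 2 to 7 below, a range that is narrower with fewer arrays, and the median difference of the members was -0.11 to -0.01. The largest count below, 7, came without negative replicate 3, where 31.4% of all genes lay below. The largest count above, 2, came without negative replicate 1, where 30.1% of all genes lay above. Shares of all genes were not computed for the other counts, which are therefore not read further. The lowest limma adjusted p of a member was 0.628, for Nr4a1 without negative replicate 3, and at least 0.999 in every other alternative. Low signal limits Atf3, Fosb and Junb, whose levels lie nearest to the median of all probe sets.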
